A study of Arabidopsis thaliana with 204 samples.

Results

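At 40 to 80 min a set of 70 Arabidopsis genes was on average higher in far-red-treated leaf tips than in white light leaf tips. Over 100 to 300 min of treatment their mean difference was small, absent or reversed, although 16 members still had a difference above 0.6 log2 units at 100 min. The set was chosen on the leaf tip samples themselves. For every gene the difference d was the mean of the treated samples minus the mean of the white light samples at each time point, on the scale log2(normalized count + 1). A gene was selected when its leaf tip mean was at least 10 normalized counts, its d averaged at least 0.6 over 40, 60 and 80 min (early d) and its d averaged at most 0.2 over 100 to 300 min (late d). Of 33602 loci in the table, 15526 reached the mean of 10, 511 of these reached the early d, and 441 of the 511 kept a late d above 0.2, which left the 70. The 2 members nearest the early threshold were AT1G22180 and AT1G68670, both with an early d of 0.608, and the 2 genes just outside it were WRKY33 (0.5997) and VAMP728 (0.599). AT5G12940 and AT1G80150 lay just inside the late threshold (late d 0.199 and 0.196), and GRH1 (0.201) and BEH2 (0.205) lay just outside. AT2G20142 and AT2G42360 had the lowest means inside (10.03 and 10.05), and RGP3 (9.35) and AT1G04360 (9.23) fell short.

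All samples came from 28-day-old wild-type Col-0 plants grown in short days. In the FRtip groups extra far-red light was given to the tip of a leaf, which took the red to far-red ratio at the tip to 0.05. In the WL groups the leaf stayed in white light with a ratio of 2.0. Leaf tips and the abaxial and adaxial sides of the petiole of the same kind of leaf were harvested at 40, 60, 80, 100, 120, 140, 160, 180 and 300 min, each sample a pool of 13 leaves, with 4 biological replicates at most times. Leaf tips gave 36 FRtip and 35 WL samples. The WL group at 40 min held 3 samples, so the early window held 12 FRtip and 11 WL leaf tips and the later window 24 of each.

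Phytochrome B is active in light rich in red and is switched off when the proportion of far-red rises, as it does next to a neighbouring plant. Its loss of activity releases PHYTOCHROME INTERACTING FACTORS (PIFs), transcription factors that bind G-box and related E-box elements and induce shade genes and auxin synthesis. In a leaf shaded at its tip, auxin made there moves to the petiole, where growth on the abaxial side bends the leaf upwards. Several negative regulators are induced along with the response, and gibberellins and brassinosteroids act with auxin in the growth of the petiole.

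Depth was 805840 to 5538648 reads assigned to genes per sample over all 204 samples. In the early window it was 962574 to 4398905 in FRtip and 1050898 to 4308756 in WL leaf tips. Of 5 guard cell markers, KAT1, a potassium channel gene, was higher early in FRtip (580.8 to 1152 normalized counts) than in WL (84.2 to 188), and the sum of the other 4 was 345.8 to 411 in FRtip and 297.2 to 486.8 in WL. The sum of 3 epidermal markers was 128 to 229 in FRtip and 210.6 to 262.1 in WL, and those of 7 mesophyll markers overlapped between the groups. In the petiole, the summed level of 6 abaxial side genes had a median of 617.7 in abaxial and 326.6 in adaxial FRtip samples, and that of 4 adaxial side genes a median of 309.9 in abaxial and 402.5 in adaxial FRtip samples. The part of the marker differences between FRtip and WL in the members' values was not tested. These were bulk samples, so fewer cells of a type and less RNA per cell cannot be told apart.

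In the leaf tip the difference of the members was short. The median d of the 70 members was 0.80 at 40 min, 0.86 at 60 min and 0.76 at 80 min, then 0.28 at 100 min, 0.09 at 120 min and -0.07 at 140 min, and it reached -0.36 at 300 min. The median over all 15526 loci stayed between -0.03 and -0.01 at all 9 times. The largest of a member's 3 early values came at 40 min in 26 members, at 60 min in 29 and at 80 min in 15. All 3 early values were above 0 in 67 members, and in 21 members each of them was at least 0.6. At 300 min 59 of the 70 members had a d below 0, where the median over all loci was -0.01. This time was 1 of the 6 later times whose mean the rule capped, so the count is partly set by the choice. Early FRtip and WL samples did not overlap in 10 members, against 1.09% of all loci at this level (169 of 15526), and later FRtip samples all lay below all WL samples in 1 member, HAT3, against 0.335% of all loci. These counts come from the samples that chose the members and describe them only.

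**Figure D1:**
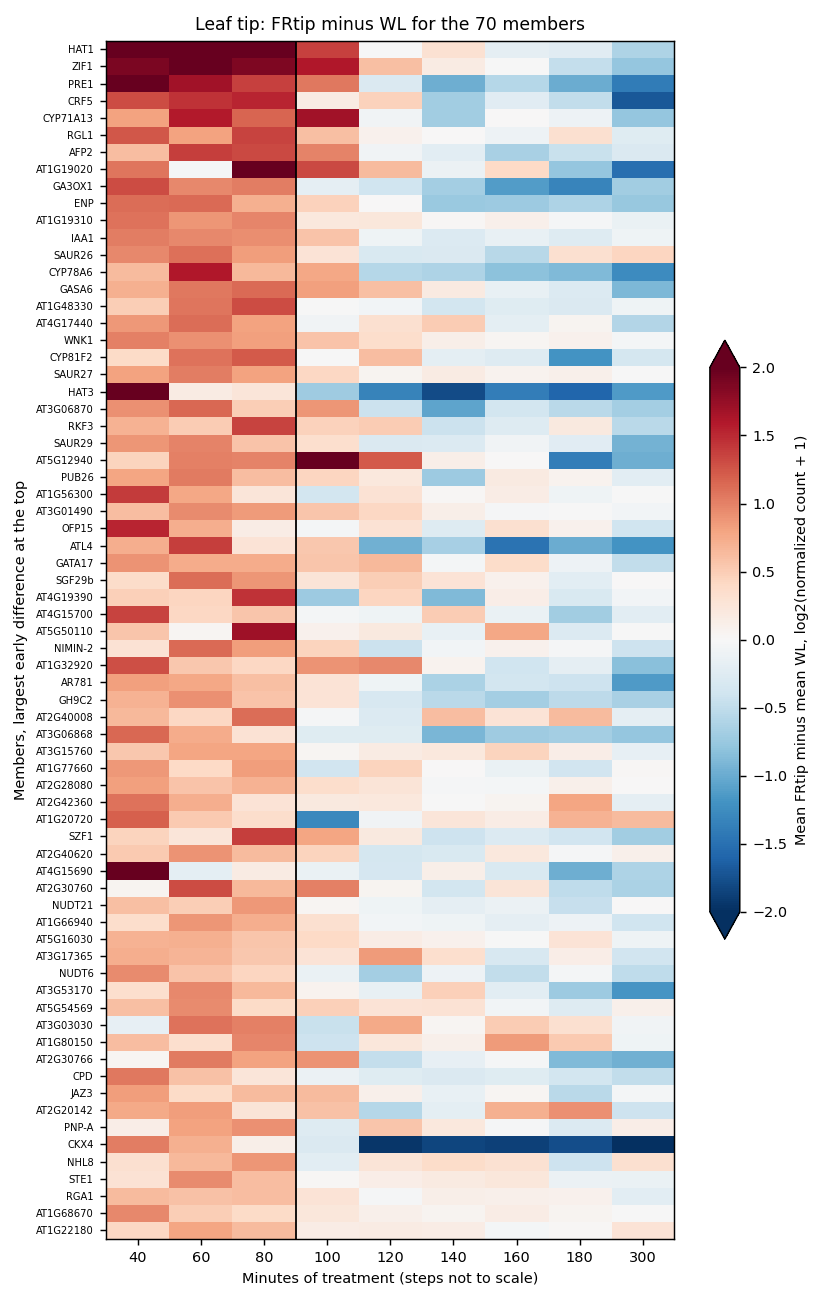
Difference d (mean FRtip minus mean WL in log2(normalized count + 1), colour, limited to ±2) in the leaf tip for the 70 members (rows, largest early d at the top) at 9 times (columns, minutes of treatment). The black line separates the early from the later window, both used by the rule. The red of the 3 early columns gives way to pale or blue cells, with 59 members below 0 at 300 min.

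Members were mostly weakly expressed. Their leaf tip means ranged from 10.03 to 2097 with a median of 29.8 normalized counts (60.3 over the 15526 loci), 24 members lay under 20 and 15 at or above 100. The choice itself moved with single replicates. When each replicate was left out in turn and the rule applied to the other 3, it selected 109, 80, 116 and 66 genes. Read in the replicate left out, these had a median early d of 0.47, 0.51, 0.36 and 0.47, and 32, 25, 28 and 23 of them met both thresholds there. Of all loci, 1.85%, 2.1%, 0.94% and 3.65% met both thresholds in those replicates.

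A set of promoters is shown for 1 PIF-related element, which was picked after the shares of all 12 elements were seen. Its share was higher before the members than before other genes. The 250 bases before the annotated start of each gene (RefSeq, build TAIR10.1, joined by locus) were searched on both strands. The PBE-box, the E-box CATGTG that PIFs bind, was found in 18 of 70 members (25.7%), against 10.8% of the 15034 genes with a leaf tip mean of at least 10 and a window. The G-box CACGTG was found in 9 members (12.9%, against 7.49%), the AuxRE core TGTCTC, an auxin response element, in 9 (12.9%, against 10.5%) and the HD-ZIP site AATNATT in 20 (28.6%, against 31.5%). The W-box core TTGAC, bound by WRKY factors, was found in 37 (52.9%, against 44.2%) and the evening element core AATATCT in 12 (17.1%, against 10.3%). Of the other 6 elements searched, TGTCGG was in 4 members (5.71%, against 4.89%), AAACCCTA in 1 (1.43%, against 3.61%) and ACGTGNC in 6 (8.57%, against 9.68%). GCCGAC was in 3 (4.29%, against 2.97%), GCCGCC in 0 (against 1.95%) and GAANNTTC in 8 (11.4%, against 9.12%). CACGTG can overlap ACGTGNC. A match is only a run of letters, and no test was made of these shares. The 18 members with a PBE-box include the close copies SAUR26, SAUR27 and SAUR29 and the neighbours AT2G30760 and AT2G30766. They are therefore not independent, and the windows of these SAUR genes are among those shown. The windows of 6 members with a PBE-box follow, 5′ to 3′ on the gene's strand, with PBE-boxes and G-boxes in capitals.
ZIF1 (chr5:4432047-4432296, plus strand): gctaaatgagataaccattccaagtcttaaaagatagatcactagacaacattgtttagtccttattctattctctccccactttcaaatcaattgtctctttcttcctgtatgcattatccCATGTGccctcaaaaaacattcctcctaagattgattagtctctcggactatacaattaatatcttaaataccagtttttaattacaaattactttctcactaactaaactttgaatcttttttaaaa
GA3OX1 (chr1:5346343-5346592, minus strand): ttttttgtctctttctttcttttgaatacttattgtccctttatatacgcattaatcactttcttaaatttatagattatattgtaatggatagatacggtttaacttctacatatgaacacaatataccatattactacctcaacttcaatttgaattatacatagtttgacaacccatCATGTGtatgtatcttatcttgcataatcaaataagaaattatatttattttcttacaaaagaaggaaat
AT1G19310 (chr1:6677681-6677930, minus strand): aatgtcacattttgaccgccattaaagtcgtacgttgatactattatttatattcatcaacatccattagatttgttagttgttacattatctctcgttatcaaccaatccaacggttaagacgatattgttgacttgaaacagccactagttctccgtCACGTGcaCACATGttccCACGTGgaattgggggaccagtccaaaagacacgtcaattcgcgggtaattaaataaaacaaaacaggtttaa
SAUR26 (chr3:982807-983056, plus strand): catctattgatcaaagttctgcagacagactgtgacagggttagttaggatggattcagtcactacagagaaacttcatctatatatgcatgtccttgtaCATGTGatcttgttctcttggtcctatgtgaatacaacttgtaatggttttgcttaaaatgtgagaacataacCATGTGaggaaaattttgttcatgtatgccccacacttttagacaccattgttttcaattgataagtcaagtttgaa
SAUR27 (chr3:980822-981071, plus strand): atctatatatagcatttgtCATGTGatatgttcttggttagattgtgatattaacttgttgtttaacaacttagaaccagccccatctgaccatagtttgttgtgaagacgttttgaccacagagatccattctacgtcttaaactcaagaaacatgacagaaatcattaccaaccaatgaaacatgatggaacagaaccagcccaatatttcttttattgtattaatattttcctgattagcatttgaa
SAUR29 (chr3:977475-977724, minus strand): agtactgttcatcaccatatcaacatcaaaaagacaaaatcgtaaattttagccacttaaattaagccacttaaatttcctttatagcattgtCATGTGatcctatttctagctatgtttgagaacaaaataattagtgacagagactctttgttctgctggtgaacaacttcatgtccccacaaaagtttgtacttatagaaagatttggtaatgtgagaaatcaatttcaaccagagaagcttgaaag

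In these windows the PBE-box began 128 bases before the start of ZIF1, 70 before GA3OX1, 83 before AT1G19310, 231 before SAUR27 and 157 before SAUR29, and SAUR26 held it at 150 and at 77 bases. AT1G19310 had a G-box on each side of it, at 91 and 73 bases. The windows of HAT1 and HAT3 held none of the 12 elements, and PRE1 held HD-ZIP sites only.

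The largest early difference belonged to HAT1, a class II HD-ZIP transcription factor gene known as a shade-induced growth regulator. At 60 min it had 182.5, 114.7, 132.8 and 179.7 normalized counts in FRtip, against 32.98, 6.86, 15.3 and 26.1 in WL. All 12 early FRtip samples (73.5 to 213.5) lay above all 11 WL samples (6.86 to 39.9), and its early d was 2.81. At 300 min it had 13.7, 9.13, 6.84 and 14.5 in FRtip, against 21.9, 13.0, 16.3 and 16.9 in WL, so that the 2 groups overlapped and its late d was 0.11. HAT3, a class II relative that acts in leaf polarity, had a single early peak. At 40 min it had 155.4, 138.5, 122.7 and 144 counts in FRtip, against 24.1, 34.4 and 30.8 in WL (d 2.21), while its d was 0.17 at 60 min and 0.24 at 80 min. It then stood below WL at every later time. At 140 min HAT3 had 14.9, 15.1, 19.7 and 28.5 counts in FRtip, against 67.3, 59.2, 83.7 and 62.5 in WL, and its late d of -1.32 was the second lowest of the set.

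Of 16 shade and phytochrome marker genes, HAT1 and HAT3 were the 2 members. Among the other 14 genes, limma called 10 higher and 4 lower in FRtip at 40 to 80 min, against 4.22% of 19963 genes called higher and 6.20% lower in that window. At 100 to 300 min 10 of these 14 were called higher and 2 lower, against 13.6% and 17.7% of all genes. The class II genes HAT2, HB4 and HB-2 (ATHB2) had log2 differences of 1.72, 5.43 and 5.24 early and of 1.27, 1.99 and 3.77 at 100 to 300 min. With such an early difference and no membership, the rule required a late d above 0.2, so these later values are description only.

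Auxin-inducible genes formed the next group. IAA1 encodes an Aux/IAA repressor, which holds auxin response factors in check and is itself induced by auxin. It had 270.2, 238.2, 201.6 and 283 counts in FRtip at 60 min, against 141.6, 123.4, 98.7 and 143.4 in WL, and no early sample overlapped. Its d was close to 1 at the 3 early times (1.02, 0.97 and 0.93) and lay between -0.27 and -0.08 from 120 min. IAA1 was the only member among the 20 Aux/IAA genes tested. Of the other 19, limma called 9 higher and 1 lower at 40 to 80 min, against 4.22% and 6.20% of all genes. At 100 to 300 min 12 were called higher and 3 lower, against 13.6% and 17.7%. Leaf tip calls of this and every other list use the contrast that chose the members, so they are description only. A list gene that stayed higher later could not be a member, so its contrast with the members was set by the rule.

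SAUR26, SAUR27 and SAUR29, small auxin up RNA genes that promote cell expansion as a class, lie in 1 cluster on chromosome 3. They are close copies, so reads may have been split between them and their values are uncertain and not independent. SAUR26 had 87.7, 74.1, 59.2 and 83.1 counts in FRtip at 60 min, against 62.1, 25.1, 30.6 and 29.8 in WL. The 1 WL sample at 62.1 reached into the FRtip range. The early d was 0.97 for SAUR26, 0.88 for SAUR27 and 0.82 for SAUR29, and the late d was -0.02, 0.13 and -0.25. The SAUR list held only the 15 loci with a numbered SAUR symbol, so it does not stand for the whole family. Of the other 11 listed genes tested, 7 were called higher and 0 lower early, against 4.22% and 6.20% of all genes. At 100 to 300 min 7 were called higher and 1 lower, against 13.6% and 17.7%. SAUR19, SAUR22 and SAUR23 had log2 differences of 2.04, 3.90 and 2.34 later. A gene above the late threshold could not be a member, so this contrast with the 3 members was set by the rule. ENP, also called NPY1, encodes an NPH3-domain protein that acts in auxin-dependent organ formation. It had 133.4 to 305.5 counts in FRtip early (median 241.7), against 65.2 to 191.7 in WL (median 118.3), and a late d of -0.40.

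Gibberellin genes supplied 3 members of the 9 on that list with a leaf tip mean of at least 10. GA3OX1 encodes the enzyme that makes bioactive gibberellin. At 60 min it had 75.8, 63.5, 54.4 and 51.7 counts in FRtip, against 32.98, 32, 40.3 and 20.5 in WL, and all early FRtip samples lay above all WL samples. At 180 min GA3OX1 had 10.02, 12.6, 4.82 and 7.13 counts in FRtip, against 16.4, 28.6, 24.4 and 19.8 in WL, again without overlap and now with FRtip below. Its d turned from 1.02 at 80 min to -0.17 at 100 min. RGL1 and RGA1 (RGA) encode DELLA proteins, which repress growth until gibberellin triggers their breakdown. RGL1 had 26.1, 31.8, 36.8 and 42.7 counts in FRtip at 60 min, against 15.5, 20.6, 18.1 and 22.3 in WL. RGA1 had 241.8, 222.3, 208 and 199.9 in FRtip, against 153.3, 162.3, 130.7 and 132.2 in WL at that time. RGA1 stayed at 0.59 to 0.63 in d at each early time and at -0.02 to 0.28 from 100 to 180 min. Another DELLA gene, GAI, was no member because it stayed higher (log2 difference 1.68 early and 1.06 later). Of the other 14 gibberellin genes tested, 5 were called higher and 1 lower early, against 4.22% and 6.20% of all genes. Later 5 were called higher and 2 lower, against 13.6% and 17.7%.

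PRE1 encodes a small atypical bHLH protein that promotes elongation downstream of brassinosteroid, gibberellin and auxin. It had 400.6, 465.8, 404.9 and 348.1 counts in FRtip at 60 min, against 131.9, 148.6, 98.7 and 126.6 in WL. At 300 min the order was the opposite, with 22.2, 29.7, 27.4 and 15.6 in FRtip and 85.3, 40.4, 74.6 and 59.7 in WL. Neither time had overlapping groups, and the level of PRE1 in FRtip was 2.60 log2 units lower in the later window than in the early one, the largest such fall in the set. CPD, a cytochrome P450 gene of brassinosteroid synthesis that is repressed by brassinosteroid, had 478.8, 483.4, 492.9 and 485.1 counts in FRtip at 60 min, against 351.1, 306.3, 308.6 and 327.8 in WL. Its d was 1.06 at 40 min, 0.59 at 60 min and 0.24 at 80 min and was negative at all 6 later times. Of the other 16 brassinosteroid genes tested, 9 were called higher and 2 lower early, against 4.22% and 6.20% of all genes. Later 9 were called higher and 4 lower, against 13.6% and 17.7%.

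**Figure D2:**
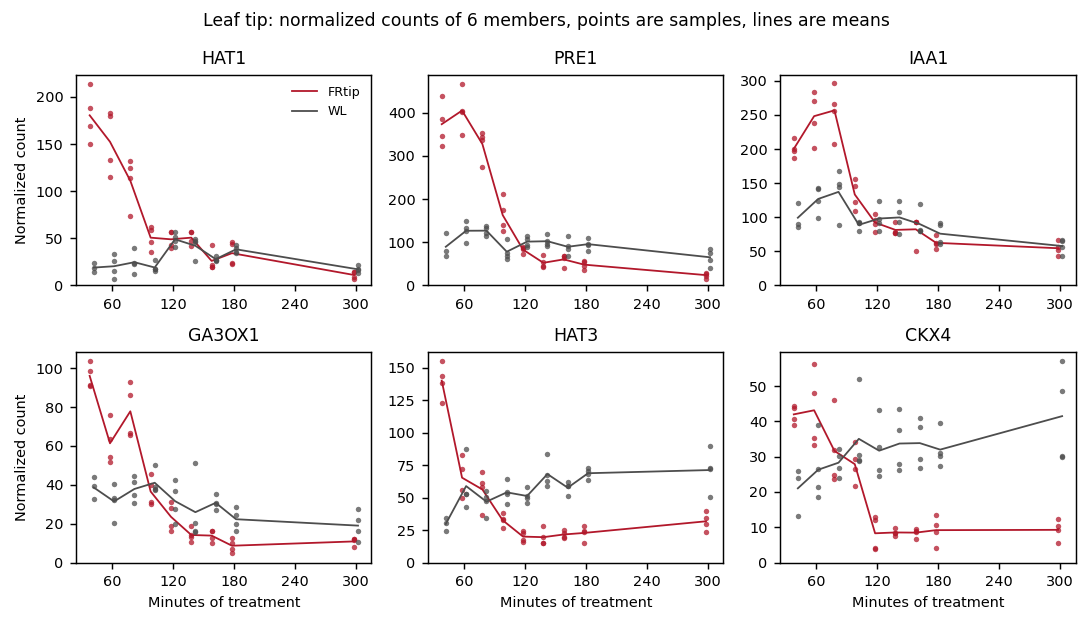
Normalized counts (vertical axis) of 6 members in single leaf tip samples (points) against minutes of treatment, with lines through the means of FRtip (red) and WL (grey). The FRtip samples of HAT1, PRE1, IAA1 and GA3OX1 stand above WL up to 80 min, and those of HAT3 and CKX4 stand below WL from 120 min on.

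CKX4, which encodes an enzyme that breaks down cytokinin, had the lowest late d of the set (-1.63). At 60 min it had 33.2, 35.3, 48.01 and 56.1 counts in FRtip, against 21.3, 38.9, 26.4 and 18.6 in WL, with overlap. At 300 min it had 10.2, 9.13, 5.48 and 12.2 in FRtip, against 48.8, 30.3, 29.8 and 57.1 in WL, with no overlap. Its d was between -2.04 and -1.78 at each time from 120 min on. Among the other 12 cytokinin genes tested, 2 were called higher and 3 lower early, against 4.22% and 6.20% of all genes. Later 3 were called higher and 9 lower, against 13.6% and 17.7%. CRF5, a cytokinin response factor gene of the AP2/ERF family, had 35.6, 22.9, 46.4 and 26.95 counts in FRtip at 60 min, against 11.6, 16, 8.34 and 9.31 in WL. Its d at 300 min was -1.69.

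Some members are known from defence or stress. CYP71A13, a P450 gene of camalexin synthesis, had 59.3, 74.1, 75.2 and 76.4 counts in FRtip at 60 min, against 25.2, 45.7, 18.1 and 13.0 in WL. It lies beside AT2G30760 and AT2G30766, both members as well, so these 3 are not independent. CYP81F2, a P450 gene of indole glucosinolate metabolism, had an early d of 0.90 at a mean of only 13.8 counts. SZF1, a salt-inducible zinc finger gene, had 30.8 to 138.4 counts in FRtip early and 7.99 to 62.6 in WL, and its early d of 0.69 came mainly from 80 min (1.38). AT1G19020, which was on no list, had an early d of 1.11 from 2 of 3 times, with -0.03 at 60 min. JAZ3, a repressor of jasmonate signalling, had 54.7 to 91.7 counts in FRtip early, against 34.9 to 72.6 in WL. Among the other 37 stress, wound and touch genes tested, 3 were called higher and 0 lower early and 7 higher and 2 lower later. Among the other 23 jasmonate genes 2 were called higher and 2 lower early and 3 higher and 7 lower later. Of all genes, 4.22% were called higher and 6.20% lower early, and 13.6% and 17.7% later. Lists were matched by gene symbol. By this match the 22 lists held 15 members on 8 lists, and the remaining 55 members were matched to none. Some symbols, such as HHO2 of the nitrate list, found no match, so a member listed under another name was missed. The 14 lists without a matched member included auxin synthesis, ethylene, abscisic acid, expansin and XTH, circadian clock, heat shock, photosynthesis and ribosomal protein genes. The expansin and XTH list does not stand for all cell wall genes, and the endoglucanase gene GH9C2, a member, was not on it.

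ZIF1, a vacuolar membrane transporter of the zinc-binding metabolite nicotianamine, had the second largest early d (2.00). It had 670.8, 677.5, 620.9 and 669.3 counts in FRtip at 60 min, against 155.2, 144, 115.4 and 139.7 in WL, a gap far wider than either group. AFP2 encodes an interactor of the abscisic acid factor ABI5 and AT1G19310 a RING/U-box protein, and their early d was 1.11 and 0.98. Among the most abundant members, GASA6, which encodes a gibberellin-regulated peptide, had 2015, 2320, 2084 and 2167 counts in FRtip at 60 min, against 964.2, 1113, 1076 and 987.1 in WL. Its d was 1.05 at 60 min, 0.60 at 120 min and -0.90 at 300 min. AT5G16030 had the highest mean, 2097, and 1812 to 3833 counts in FRtip early, against 980.6 to 2538 in WL. The endoglucanase gene GH9C2 did not overlap early, with 451.3 to 647.1 counts in FRtip and 246 to 424.3 in WL. WNK1, a protein kinase gene, had 273.2 to 549.7 in FRtip and 111.9 to 302.5 in WL. ATL4, a RING finger gene, and AT3G06868 had a late d of -0.79 and -0.60, which placed them with CKX4, HAT3 and GA3OX1 as the 5 lowest. AT3G06868 neighbours AT3G06870, another member.

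The difference was lost in 2 ways. The mean FRtip level was lower in the later than in the early window in 58 of 70 members, and the mean WL level was higher in the later window in 53, with both in 41. The larger share of the loss came from FRtip in 46 members and from WL in 24. The median change was -0.60 in FRtip and 0.30 in WL, against -0.03 and -0.02 over all 15526 loci. The rule fixed a loss of d in every member, on these same samples. Choosing on a high early d favours high early FRtip and low early WL values, so these changes describe the members only. PRE1 (-2.60 in FRtip, -0.37 in WL), GA3OX1 (-2.23 and -0.40) and HAT1 (-2.13 and 0.58) lost it mainly through lower FRtip levels. AT1G19310 (0.03 and 0.95) and WNK1 (0.29 and 1.02) lost their difference mainly through higher WL levels later. AT1G56300, a DnaJ-domain chaperone gene, was 3.46 log2 units higher later in FRtip and 4.27 in WL, and its early counts were low (4.71 to 31.2 in FRtip, 0 to 21.3 in WL). By late d, 14 members lay at -0.3 or lower and 56 above, a boundary set for description, and 7 members were below 0 at all 6 later times.

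**Figure D3:**
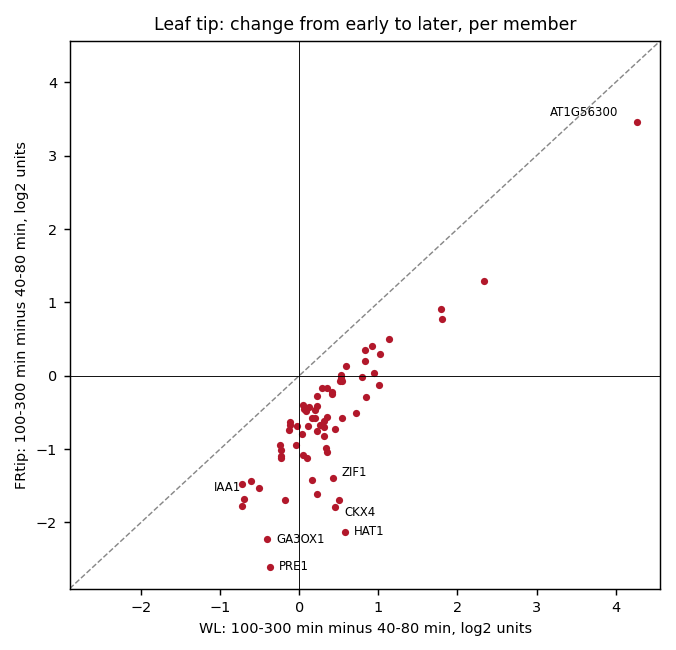
Change of each of the 70 members in the leaf tip between the early (40 to 80 min) and the later (100 to 300 min) window, FRtip on the vertical and WL on the horizontal axis, both in log2 units. All points lie below the dashed line of equal change, which the rule fixes, and in 46 of them the larger share of the loss came from FRtip.

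Petiole samples played no part in the choice of members, so they could be tested. Per side, limma was fitted to log2(normalized count + 1) of 19963 genes with a mean of at least 1, with 1 mean per treatment and time. Times were averaged within each window, and p-values were adjusted by Benjamini-Hochberg over all genes. At 60 to 80 min, while the leaf tip difference was largest, 0 of 70 members were called on either side (8 FRtip and 8 WL samples per side). The share of all genes called was 0.01% abaxially and 0.00501% adaxially. At an unadjusted p below 0.05, 4 members passed abaxially and 7 adaxially, near the 7.22% and 6.76% of all genes that did, and edgeR and DESeq2 on recovered reads called 0. The members' median log2 difference was 0.01 abaxially (range -0.43 to 0.88) and 0.05 adaxially (range -0.67 to 1.15). The highest values were those of GASA6 abaxially and PRE1 adaxially (limma adjusted p 0.34 and 0.47). The lack of calls does not show that such members were unchanged.

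At 100 to 180 min, when the median leaf tip d was 0.28 at 100 min and -0.24 at 180 min, part of the set was higher in the petiole (20 FRtip and 20 WL samples per side). Abaxially 18 members (25.7%) were called higher, against 5.77% of all genes, and 6 (8.57%) lower, against 4.38%. Adaxially 15 members (21.4%) were called higher, against 3.15%, and 1 (1.43%) lower, against 1.63%. The median of the 70 members was 0.09 abaxially and 0.08 adaxially, against -0.01 over all genes on each side, so most members moved little. The members called higher on both sides numbered 14, which is 77.8% of those called abaxially and 93.3% of those called adaxially. Over all genes 2.42% were called higher on both sides, which is 42% of those called abaxially and 76.9% of those called adaxially, and the 2 overlaps were not tested against each other. Among the 441 genes with a sustained leaf tip difference, 38.5% were called higher abaxially and 28.6% adaxially, and the 2 sets were not tested against each other.

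**Figure D4:**
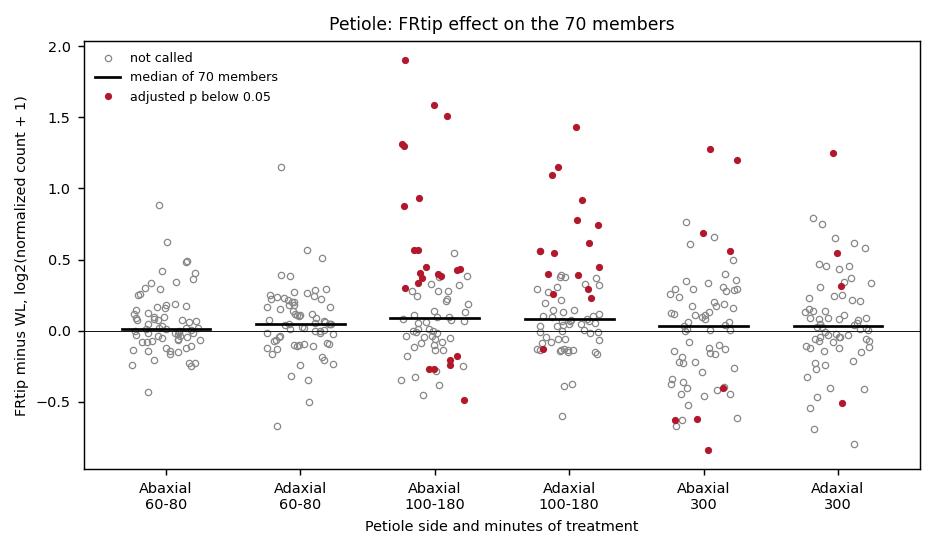
FRtip minus WL in log2(normalized count + 1) for each of the 70 members (points) on the 2 petiole sides in 3 windows of minutes, with filled points for adjusted p below 0.05 and bars for medians. No point is filled at 60 to 80 min, and 24 abaxial and 16 adaxial points are filled at 100 to 180 min, most of them above 0.

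The auxin genes IAA1, SAUR26, SAUR27 and SAUR29 rose in the petiole. IAA1 had 181 to 622.5 counts abaxially in FRtip (median 430.8), against 91.7 to 178.8 in WL (median 133.1), with no overlap between 20 and 20 samples. Its log2 difference was 1.59 ± 0.10 (SE) abaxially and 1.15 ± 0.09 adaxially, with limma adjusted p-values of 1.05e-18 and 3.06e-14. At 140 min it had 381.6, 316.9, 605.4 and 424.7 counts abaxially in FRtip, against 160.9, 152, 125.5 and 174 in WL. SAUR26 had 93.7 to 261.9 abaxially in FRtip (median 202.1), against 56.3 to 104 in WL (median 69.5), and 154.6, 138.7, 257.8 and 179.6 in FRtip at 140 min, against 69.4, 88.3, 69.0 and 97.3 in WL. Its difference was 1.31 ± 0.09 abaxially (adjusted p 1.74e-17, limma) and 0.92 ± 0.07 adaxially (2.72e-15). SAUR27 and SAUR29 rose as well, by 1.3 and 0.93 abaxially and 0.74 and 0.56 adaxially. Of the 14 genes of the SAUR list tested, 12 were called higher and 0 lower on each side. Of the 20 Aux/IAA genes 14 were called higher and 0 lower abaxially and 13 higher and 1 lower adaxially. Of all genes, 5.77% were called higher and 4.38% lower abaxially, and 3.15% and 1.63% adaxially.

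PRE1, GA3OX1 and both class II HD-ZIP members also rose. PRE1 had 13.5 to 118.4 counts abaxially in FRtip (median 75.4), against 3.84 to 34.2 in WL (median 16.7), and its difference was 1.90 ± 0.16 (limma adjusted p 1.73e-13). At 140 min PRE1 had 100.7, 55.8, 115.9 and 63.6 abaxially in FRtip, against 22.1, 18.4, 20.6 and 22.4 in WL. Adaxially its counts were low (medians 14.3 in FRtip and 3.98 in WL) and the difference was 1.43 ± 0.23. GA3OX1 rose by 1.51 ± 0.20 abaxially, where its counts were low (medians 9.51 in FRtip and 2.25 in WL), and by 1.1 ± 0.13 adaxially (medians 23.4 in FRtip and 10.6 in WL). At 140 min it had 7.59, 7.39, 7.21 and 16.8 counts abaxially in FRtip, against 3.16, 1.54, 0.664 and 0.604 in WL. HAT1 rose by 0.57 ± 0.06 abaxially (medians 236 in FRtip and 158.6 in WL) and 0.62 ± 0.06 adaxially, against an early leaf tip d of 2.81. HAT3 rose by 0.41 ± 0.07 and 0.40 ± 0.07, in the window in which it stood below WL in the leaf tip. WNK1 rose by 0.33 and 0.26 and AT1G66940, a kinase-like gene, by 0.37 and 0.23. ZIF1 and CKX4, in contrast, were not called on either side, with abaxial medians of 35.1 in FRtip and 34.4 in WL for ZIF1 and of 6.65 in FRtip and 9.43 in WL for CKX4.

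Members that fell in the abaxial petiole at 100 to 180 min included CPD, which had 39.5 to 117.3 counts in FRtip (median 79.6), against 76.2 to 129 in WL (median 109.9). Its difference was -0.49 ± 0.08 (limma adjusted p 8.81e-06). AT1G68670, a MYB-like factor gene, fell by 0.27 and AT2G28080, a glycosyltransferase gene, by 0.24 on the log2 scale, and AT2G28080 was not called without replicate 1 (-0.16, limma adjusted p 0.074). RGA1 fell by 0.18 abaxially (adjusted p 0.024, limma), and it was called in 9 of 12 alternatives of the processing. GH9C2 was the only member called lower adaxially (-0.13, adjusted p 0.030, limma), and this call was lost without any 1 of the 4 replicates (adjusted p 0.074 to 0.29).

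At 300 min, with 4 samples per group, 4 members were called higher abaxially (5.71%, against 2.67% of all genes) and 4 lower (5.71%, against 4.51%). Adaxially 3 were higher (4.29%, against 1.26%) and 1 lower (1.43%, against 1.98%). AT5G12940, a leucine-rich repeat protein gene, had 204.3, 166.6, 237.8 and 266.2 counts abaxially in FRtip, against 97.6, 67.5, 75.2 and 122.9 in WL (log2 difference 1.28 ± 0.24, limma adjusted p 0.00020). Adaxially it had 68.4, 74.3, 69.7 and 56.1 in FRtip, against 26.7, 31.6, 26.8 and 25.6 in WL. HAT3 had 103.6, 77.5, 113 and 140.1 counts abaxially in FRtip, against 62.4, 63.4, 66.1 and 70.9 in WL, without overlap. CPD was now higher, with 125.1, 141.8, 108.9 and 108.9 counts abaxially in FRtip, against 71.0, 76.6, 112.3 and 70.9 in WL. Adaxially CPD had 230.6, 243.2, 275.3 and 250.2 in FRtip, against 161.3, 155.9, 189.2 and 178.3 in WL, and its abaxial difference was 0.56 at 300 min (limma adjusted p 0.045) and -0.49 at 100 to 180 min. The 2 windows were not tested against each other, and the adaxial call was lost without replicate 3 (adjusted p 0.053) or replicate 4 (0.063, limma). GASA6 rose by 1.20 abaxially, a call lost without replicate 1, 3 or 4 (limma adjusted p 0.063, 0.13 and 0.23). At 100 to 180 min GASA6 was higher abaxially by 0.87 (limma adjusted p 6.9e-05), a call kept in 12 of 12 alternatives, and was not called adaxially (0.32, adjusted p 0.083, limma). WNK1 rose by 0.31 adaxially, a call lost without replicate 2, 3 or 4 (0.23, 0.073 and 0.16). AT1G66940 fell by 0.62 abaxially and 0.51 adaxially at 300 min, after having risen earlier, and the adaxial fall was not called without replicate 4 (-0.42, limma adjusted p 0.058). IAA1 was not called at 300 min, although its FRtip and WL samples did not overlap abaxially. It had 327.9, 270.4, 336.3 and 327.1 counts abaxially in FRtip, against 229.6, 134.4, 198.8 and 254.5 in WL (log2 difference 0.66 ± 0.22, limma adjusted p 0.051), and its adaxial difference was 0.65 ± 0.20 (0.061). The 3 SAUR members were not called either, with log2 differences of -0.11 to 0.13 over both sides.

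**Figure D5:**
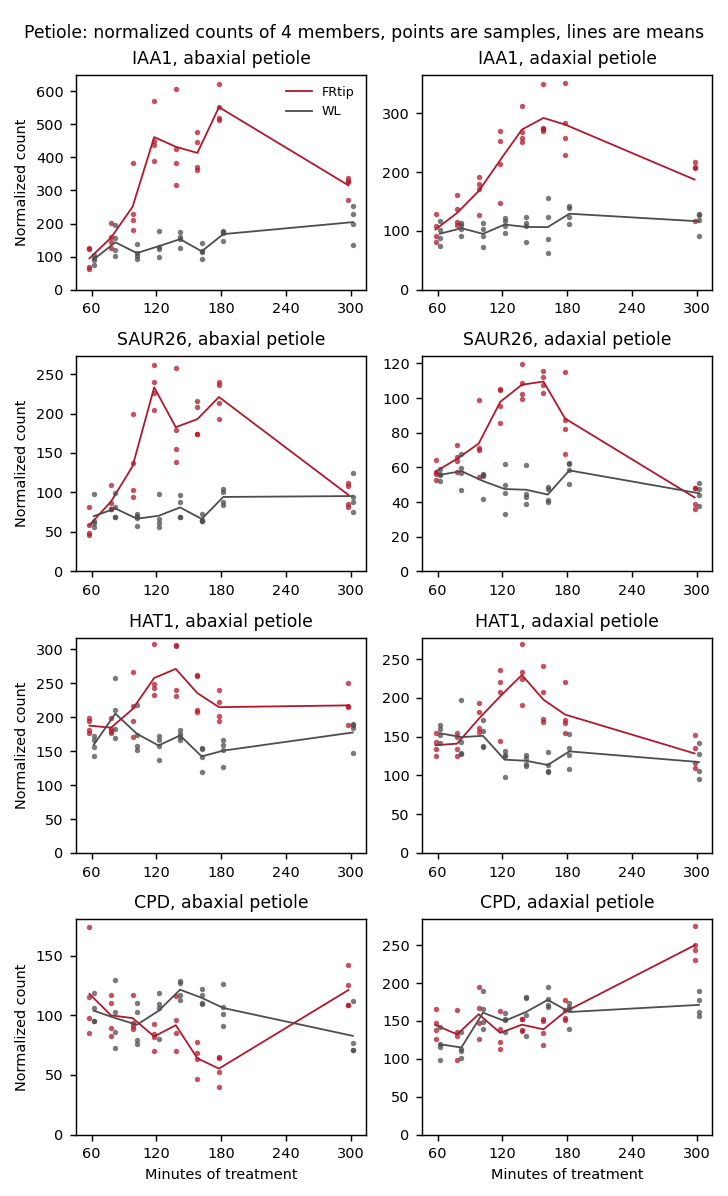
Normalized counts (vertical axis) of IAA1, SAUR26, HAT1 and CPD in single petiole samples (points) from 60 to 300 min, abaxial left and adaxial right, with lines through the means of FRtip (red) and WL (grey). IAA1, SAUR26 and HAT1 part from WL after 80 min, whereas abaxial CPD lies below WL at 160 and 180 min and above it at 300 min.

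The change of the FRtip effect with time was tested directly in the petiole, as the effect at 60 to 80 min minus that at 100 to 300 min. Abaxially 7 of 70 members had a smaller early than later effect, against 2.03% of all genes, and 1 member (1.43%) a larger one, against 0.972%. Adaxially these numbers were 3 (4.29%, against 0.711%) and 0, against 0.125%. Those with a smaller early effect abaxially were IAA1 (-1.36 ± 0.18), PRE1 (-1.48 ± 0.30), SAUR26 (-1.15 ± 0.16), SAUR27, SAUR29, HAT1 and AT5G12940. IAA1, SAUR26 and HAT1 were also called adaxially. Adaxial PRE1 (-0.01 ± 0.42) and abaxial GASA6 (-0.04 ± 0.30) were not called. The adaxial calls were lost without replicate 3 for HAT1 (limma adjusted p 0.051), without replicate 3 or 4 for IAA1 (0.097 and 0.084) and without replicate 1 for SAUR26 (0.10). The single gene with the leaf tip order, a larger early effect, was AT5G54569, a long non-coding RNA that overlaps AT5G54570, and reads of the 2 may have been mixed (0.52 ± 0.15, limma adjusted p 0.033). Its call was lost with edgeR (adjusted p 0.056), with DESeq2 (0.12) and without replicate 2, 3 or 4 (0.19, 0.24 and 0.36).

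The FRtip effect at 100 to 180 min was larger abaxially than adaxially in 2 members, SAUR27 (0.55 ± 0.13) and SAUR29 (0.37 ± 0.10), against 0.496% of all genes called in either direction. The limma adjusted p-values were 0.026 and 0.049, and both calls were lost without replicate 3 or 4 (0.47 and 0.29 for SAUR27, 0.26 and 0.55 for SAUR29) and that of SAUR29 also without replicate 1 (0.24). For the other 68 members a difference between the sides was not shown. Abaxial and adaxial samples were fitted as independent here and in the WL comparison of sides. The labels do not give whether same-numbered petiole sides came from the same leaves, so a pairing of sides was not used. In WL the sides themselves differed. Abaxial levels were higher in 25 members (35.7%, against 32% of all genes) and lower in 19 (27.1%, against 35%), shares near those of all genes. PRE1 was 1.81 ± 0.16 log2 units higher abaxially and GA3OX1 1.89 ± 0.14 lower, with AT5G16030 and ZIF1 also lower by 1.70 and 0.94 and AT5G12940, ENP and WNK1 higher by 1.28, 0.76 and 0.51.

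Part of the set changed over the day without treatment. In the WL petiole, later samples (100 to 300 min) were higher than early ones (60 to 80 min) in 12 members abaxially (17.1%, against 9.52%) and 13 adaxially (18.6%, against 9.22%). They were lower in 6 (8.57%, against 10.2%) and 7 of 70 (against 7.42%). AT1G56300 rose by 3.75 ± 0.20 abaxially and 4.00 ± 0.15 adaxially, AT1G48330 by 1.58 and 1.40, and abaxial PRE1 by 1.19. SZF1 fell by 0.80, NIMIN-2, whose product binds the defence regulator NPR1, by 0.63 and PUB26, a plant U-box gene, by 0.54 adaxially, and AT2G42360 fell by 0.53 abaxially, a call lost without replicate 3 or 4 (limma adjusted p 0.081 and 0.075). In WL 38 of the 70 members had a higher mean in the leaf tip than in the petiole, against 50.9% of all loci at this level.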

How the data were processed

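Normalized counts per gene were deposited as a single signal table in which the authors divided read counts by DESeq size factors. Per the labels, FastQC, STAR, Picard and HTSeq were used, with reads annotated to TAIR10, and versions and the strand setting of the counting were not given in the sources used here. Every value was a whole multiple of 1 read of its sample within 0.001 reads (100% of values), so reads were recovered for edgeR and DESeq2. No column was left unmapped. Members and gene lists were chosen with earlier results of these data known. Genes named in the text were the 12 members with the largest early d, the 3 largest of each list, the 3 smallest p-values in each direction of each petiole comparison, the 2 on either side of each threshold, the 5 lowest late d and the 5 highest means, and non-members named were list genes chosen after their values were seen. A log2 difference on log2(normalized count + 1) understates changes of low genes. The 5 petiole samples at 40 min entered no test. The pseudocount, the filter, centring, each replicate, a replicate block, edgeR and DESeq2 were varied. The fits were tested on simulated data. Software was R 4.3.3, limma 3.58.1, edgeR 4.0.16, DESeq2 1.42.0, Python 3.11.15 and pandas 2.3.3. Gene names and promoters came from RefSeq TAIR10.1, where all 70 members were found.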

Additional observations from a re-analysis of the deposited data

Results flagged for a closer look

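In 6 of 57 groups of 4 samples whose values were printed, 1 sample lay apart from the other 3 by Dixon's test, which chance does in about 1 of 20 groups. ZIF1 had 621 normalized counts in the lowest FRtip leaf tip at 60 min, with 669.3 to 677.5 in the others. CYP71A13 had 59.3 in the lowest FRtip leaf tip at 60 min, with 74.1 to 76.4 in the others. SAUR26 had 62.1 in the highest WL leaf tip at 60 min, with 25.1 to 30.6 in the others. GA3OX1 had 16.8 in the highest abaxial FRtip sample at 140 min, with 7.21 to 7.59 in the others. IAA1 had 270.4 in the lowest abaxial FRtip sample at 300 min, with 327.1 to 336.3 in the others, and CPD had 112.3 in the highest abaxial WL sample at 300 min, with 70.9 to 76.6 in the others.

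The FRtip effect differed between the petiole sides at 100 to 180 min in SAUR27 (abaxial minus adaxial 0.55) and SAUR29 (0.37). It differed between 60 to 80 and 100 to 300 min, early minus later, abaxially in IAA1 (-1.36), SAUR26 (-1.15), SAUR29 (-0.87), SAUR27 (-1.12), PRE1 (-1.48), HAT1 (-0.47), AT5G54569 (0.52) and AT5G12940 (-0.67), and adaxially in HAT1 (-0.65), SAUR26 (-0.64) and IAA1 (-0.86). All are limma calls on log2(normalized count + 1) in samples that did not choose the members.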

How the results depend on the processing

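The choice of members depended on the processing. The rule gave 45 genes with a pseudocount of 5 (41 of the 70 among them), 200 with a leaf tip mean of at least 1 (61 of the 70), 79 with a pseudocount of 0.5, 78 with median centring and 76 with TMM scaling, and 66 to 116 when 1 replicate was left out (109 without replicate 1 and 116 without replicate 3, with 59 and 60 of the 70). Counts of members called in the petiole stayed within 1.5 times under centring, a mean of at least 10 and edgeR. The comparison of FRtip effects between sides, with 2 calls, gave 1 with a pseudocount of 0.5 or no filter, 5 with a pseudocount of 5 and 5 with DESeq2. The adaxial comparison of early with later effects, with 3 calls, gave 5 with a pseudocount of 5. Leaving out 1 replicate gave 19 to 22 calls abaxially and 11 to 15 adaxially at 100 to 180 min, 4 to 6 and 1 to 4 at 300 min, 0 to 1 and 0 to 0 at 60 to 80 min, 4 to 8 and 1 to 3 for early minus later effects, 0 to 2 between sides, 38 to 46 between sides in WL, and 11 to 14 and 14 to 21 for time in WL. Of the members called at 100 to 180 min, 15 of 24 abaxial and 10 of 16 adaxial were called in every alternative. Of 564 alternative values of named genes, 527 kept the call, 37 lost it and 0 reversed. The cause was not tested.

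Same-numbered FRtip and WL samples deviated together weakly (median correlation 0.05 in leaf tips, 0.11 abaxially and 0.09 adaxially), so the numbers were not taken as pairs. With the replicate block 26 abaxial and 20 adaxial members were called at 100 to 180 min, 9 and 6 at 300 min, 0 and 0 at 60 to 80 min, 8 and 4 for early minus later effects, 3 between sides, 45 between sides in WL, and 20 and 23 for time in WL. At a median leaf tip mean of 29.8 counts the precision of single members is low, and 15 or 16 abaxial and 11 or 13 adaxial members had a mean under 10 in the petiole in FRtip or WL, where small effects could not be detected.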
